A study of Danio rerio with 4 samples.

Results

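The genes described here are 10 genes of serotonin and dopamine neurons, measured in zebrafish embryonic brain RNA on an oligonucleotide array. They were listed by symbol, by a rule that uses no measured value, although earlier results of these data were known when the list was made: tph2, tph1a, th, slc6a3 and mao for amine synthesis, transport and breakdown, gata3, otpb, arnt2 and tfap2a for transcription factors, and the receptor gene ret. They are 10 of the 8793 genes with a symbol on the array, the platform's annotation gave them 17 of its 15617 probe sets, and all 17 are reported. The arrays held RNA of foggy mutant brain (3 arrays, numbered 1 to 3 in the labels) and of wild-type brain (1 array). The wild-type label gives an age of 36 h, and the mutant labels give 36 without a unit, read here as hours. The labels name no allele and no strain, and do not say whether embryos were pooled or whether the 3 mutant samples came from separate clutches or extractions.

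Serotonin is made from tryptophan by a tryptophan hydroxylase (Tph) and then Ddc, and dopamine from tyrosine by tyrosine hydroxylase (Th) and then Ddc. Both hydroxylases need the pterin cofactor tetrahydrobiopterin. Released dopamine is taken back up by the transporter encoded by slc6a3, and monoamine oxidase breaks both amines down. In the fish brain the main serotonin groups lie in the raphe of the hindbrain, the pineal organ and the hypothalamus, and dopamine groups lie in the hypothalamus, posterior tuberculum, telencephalon and retina. The foggy locus encodes Spt5 (supt5h), a transcription elongation factor, and the mutant is known for defects in these amine neurons.

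Of the 10 genes 8 could be tested, and 1 passed: tfap2a was lower in the foggy arrays. Across all tested probe sets 3.14% were called lower and 5.5% in either direction, so the count is not a result about these genes. The tfap2a call was lost in 2 of 11 alternative fits. The enzyme gene tph2 and the transcription factor gene gata3 read lower and otpb read higher in every foggy array, without passing. That trait is not particular to them: all 10 tested probe sets had the foggy arrays on 1 side of the wild type. So did 64.6% of all tested probe sets. The dopamine neuron genes th and slc6a3 gave no readable signal in either genotype, so the array does not show whether their transcripts differed. Every value below is the deposited intensity of a probe set. A difference is foggy minus wild type on the log2(value + pseudocount) scale, where the pseudocount of 16.3 intensity units shrinks the change of faint genes. A fold is that difference turned back from the log2 scale, so it is shrunk in the same way. Levels of different probe sets are not compared as amounts of RNA. The sums given for marker lists add deposited intensities, so bright probe sets weigh most in them. RNA of whole tissue cannot tell fewer cells of a type from less RNA per cell.

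Each probe set was first placed in 1 of 2 classes of readability. A probe set was dim, and not tested, when its mean log2 value over the 4 arrays lay under the 30th percentile, which corresponds to an intensity of 27.5. By this rule 10 of the 17 probe sets were tested, covering 8 of the 10 genes, and 7 were dim. The 10 tested probe sets lay above that limit in the foggy mean and in the wild-type array taken alone, so none entered the test through 1 genotype. A second yardstick was added after the values were seen. The array carries 17 control probe sets for artificial tag sequences, which read between 0.635 and 34.4 with a median of 3.39 over the 4 arrays. Whether any tag was added to the samples is not given in the sources used here. Among them 1 tag gave the highest values, and the other 16 stayed at or under 23.9. A member value under 34.4 therefore lay within the range of the tag controls, and one between 23.9 and 34.4 lay above all but 1 of them.

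Labelled as brain, the samples carried strong neuronal signal and also signal of other tissues. All 10 neuron markers on the array were tested, and their summed intensity was 14422 to 14477 in the foggy arrays, against 14601 in the wild-type array. Within that list elavl4 was higher (+0.36, adjusted p = 0.0277), gap43 was lower (-0.39, adjusted p = 0.0378), and the other 8 missed the threshold. That is 20% called, against 5.5% of all tested probe sets. At an unadjusted p under 0.05 stood 7 of the 10, against 20.6% of all tested probe sets. Differences went both ways, 4 above 0 and 6 below, so the near-equal sum does not show that the single markers were unchanged. The skin keratin gene krt4 read 9440 to 10372 in the foggy arrays, against 8964 in the wild-type array. Red blood cell and skeletal muscle markers were lower in the mutant, in 6 of 6 and 12 of 12 tested genes, where 3.14% of all tested probe sets were called lower. The summed level of 8 red blood cell markers was 1579 to 1744 in the foggy arrays, against 6645 in the wild-type array, and that of 12 skeletal muscle markers was 2332 to 2452, against 6212. The transcript of the mutated gene, supt5h, read 258, 245 and 254 in the foggy arrays, against 210 in the wild-type array (+0.25, adjusted p = 0.137 by limma). Over all 10851 tested probe sets the median difference was +0.02.

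**Figure D1:**
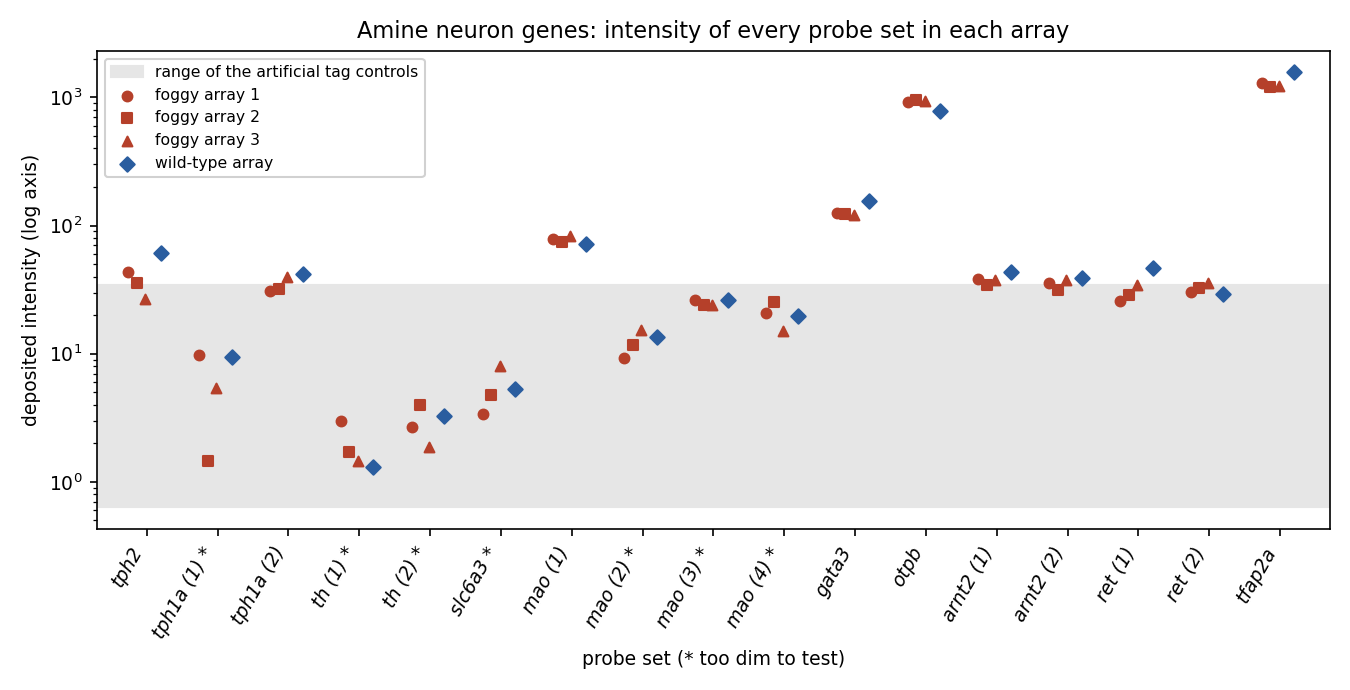
Deposited intensity (log axis) of the 17 probe sets of the 10 genes in each array, with foggy arrays in red and the wild-type array in blue. A number in brackets tells probe sets of a gene apart in the order of the deposited table, a star marks a probe set too dim to test, and the grey band is the range of the artificial tag controls, 0.635 to 34.4. All values of th and slc6a3 lie inside the band, and those of gata3, otpb, tfap2a and the first mao probe set lie above it.

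The serotonin enzyme gene tph2 encodes the tryptophan hydroxylase of raphe and pineal neurons. Its only probe set read 43.7, 35.7 and 26.5 in foggy arrays 1, 2 and 3, against 60.8 in the wild-type array. Every foggy value was lower than the wild-type value, and foggy array 3 fell below the highest tag control while arrays 1 and 2 stood above it. The difference was -0.59 (SE 0.203, 95% interval -1.04 to -0.14), or 1.51-fold lower, and limma did not call it (adjusted p = 0.128). Without the pseudocount, the foggy mean was 0.581 of the wild-type intensity. The foggy arrays disagreed more on tph2 (SD 0.245 on the log2 scale) than on the median probe set tested (SD 0.092). That median covers tested probe sets of all intensities. On the other faint tested probe sets, those of tph1a, arnt2 and ret, the SD ran from 0.060 to 0.138. With foggy array 1 left out, the closest to the wild type, the difference of -0.71 passed (adjusted p = 0.00827), in a fit that called 18.8% of all tested probe sets. In the other 9 alternatives that tested it tph2 did not pass. Among all tested probe sets 2.02% had a lower difference. All 4 values of tph2 lay above the other 16 tags.

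The tph1a gene encodes a second tryptophan hydroxylase, known from hypothalamic serotonin cells. Its brighter probe set read 30.8, 32.0 and 39.9 in the foggy arrays, against 42.1 in the wild-type array. All 3 foggy values were lower, but foggy array 3 was close to the wild type and the other foggy arrays lay between 23.9 and the highest tag control. The difference of -0.21 did not pass (SE 0.176, 95% interval -0.61 to 0.18, adjusted p = 0.546). The other tph1a probe set was dim, at 9.77, 1.46 and 5.42 in the foggy arrays and 9.50 in the wild-type array, and the genotypes overlapped. A further paralog, tph1b, was dim too and is named because of its values: it read 27.4, 24.5 and 32.0 in the foggy arrays, against 16.1 in the wild-type array, all under the highest tag control. Paralogs are similar in sequence, and whether probes are shared between the tph genes was not checked here because no probe sequences were used.

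For dopamine synthesis the array gave no usable reading. The tyrosine hydroxylase gene th, the standard marker of catecholamine neurons, had 2 probe sets. One read 2.99, 1.71 and 1.45 in the foggy arrays and 1.31 in the wild-type array, and the other 2.66, 3.99 and 1.88 in the foggy arrays and 3.27 in the wild-type array. The first was higher in each foggy array, the second overlapped, and every value was near the median of the tag controls. The dopamine transporter gene slc6a3 read 3.40, 4.78 and 8.06 in the foggy arrays, against 5.29 in the wild-type array, with the wild type inside the foggy range. Of all probe sets on an array other than controls, at most 5.87% were fainter than a th probe set and at most 10.5% fainter than that of slc6a3. With the wild type at this level, a loss could not have been seen, and no foggy array rose above the range of the tag controls.

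The mao gene encodes the monoamine oxidase of zebrafish. Only 1 of its 4 probe sets was bright enough to test. It read 79.2, 74.7 and 82.3 in the foggy arrays, against 71.6 in the wild-type array. Each foggy value was higher, and the difference of +0.11 was smaller than its standard error and did not pass (SE 0.136, 95% interval -0.19 to 0.42, adjusted p = 0.708). The 3 dim probe sets of mao read 9.22 to 15.4, 23.9 to 26.2 and 15.1 to 25.3 in the foggy arrays, against 13.5, 26.2 and 19.8 in the wild-type array, and none reached the highest tag control. The interval for the readable probe set still includes a rise of 0.42 and a fall of 0.19, so it does not show that mao was unchanged.

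Among the transcription factors, tfap2a encodes an AP-2 factor of neural crest, epidermis and retina that noradrenaline neurons of the hindbrain need in zebrafish. Its probe set, which reads several transcripts of the gene, gave 1288, 1208 and 1224 in the foggy arrays, against 1565 in the wild-type array. The foggy values were tightly grouped, at 1240 ± 42.6 (SD, n = 3), and all lay below the wild type. The difference of -0.33 (SE 0.0641, 95% interval -0.48 to -0.19), or 1.26-fold lower, passed limma's test (adjusted p = 0.0163). It was 1 call for lower expression among 10 probe sets, where 3.14% of all tested probe sets were called lower, 2.36% higher and 5.5% in either direction, so the count of calls is not a result about these genes. The call did not hold in a fit with no trend in the variance (adjusted p = 0.178), nor in one that gave the wild-type array 2 times the SD of the foggy arrays (adjusted p = 0.640).

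Because tfap2a is active in skin, neural crest and retina as well as in brain, markers of those tissues are set beside it. Of 6 other neural crest markers tested, among them sox10, foxd3, crestin and snai2, 0 passed limma's test. At an unadjusted p under 0.05 stood 0 of the 6, against 20.6% of all tested probe sets. Their differences ran from -0.14 to 0.20. The summed level of the 8 such markers on the array, dim ones included, was 1164 to 1199 in the foggy arrays, against 1148 in the wild-type array. The largest part of that sum was hand2, also a heart gene, at 418 to 487 in the foggy arrays and 469 in the wild-type array. Of 11 epidermal markers 1 was called lower, agr2, and 10 did not pass, while the sum was 20581 to 21610 in the foggy arrays, against 19930 in the wild-type array. Pigment cells and much of the head cartilage arise from neural crest. Of 5 tested pigment cell markers 4 were lower, with a sum over 6 markers of 1192 to 1283 in the foggy arrays, against 2373 in the wild-type array. Of 5 tested cartilage markers 4 were lower, with a sum over 7 markers of 2137 to 2142 in the foggy arrays, against 3594 in the wild-type array. Of all tested probe sets 3.14% were called lower. At an unadjusted p under 0.05 stood 3 of the 11 epidermal, 4 of the 5 pigment cell and 5 of the 5 cartilage markers. So did 2 of the 8 retinal genes that follow. Of 8 tested retinal genes 1 was lower, rlbp1a (-0.88, adjusted p = 3.57e-04), and 7 did not pass. Their sum was 1689 to 1807 in the foggy arrays, against 1897 in the wild-type array. Their list is named for amacrine and ganglion cells, but neither rlbp1a nor the sum is read here as a level of those cells. The part of these tissues in the tfap2a difference was not tested.

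The otpb gene encodes an Orthopedia homeodomain factor that hypothalamic and posterior tubercular dopamine neurons of zebrafish require. Its probe set read 916, 948 and 945 in the foggy arrays, against 790 in the wild-type array. All 3 foggy arrays were higher and close together, at 936 ± 17.8 (SD, n = 3). The difference of +0.24 (SE 0.0632, 95% interval 0.10 to 0.38), or 1.18-fold higher, was not called by limma (adjusted p = 0.0585). It passed when probe sets under the 50th percentile were left out (adjusted p = 0.0481) and without foggy array 1 (adjusted p = 1.90e-04), the fit with 18.8% of all tested probe sets called. Thus otpb was well readable, unlike th and slc6a3.

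The gata3 gene encodes a zinc finger factor of raphe serotonin neurons, of spinal interneurons and of the ear. Its probe set read 126, 124 and 120 in the foggy arrays, against 156 in the wild-type array, with no overlap and a foggy SD of 2.88. The difference of -0.30 (SE 0.109, 95% interval -0.54 to -0.05), or 1.23-fold lower, was not called by limma (adjusted p = 0.152). With foggy array 1 left out it passed (adjusted p = 0.0467), again among 18.8% of all tested probe sets. Of 5 tested ear and lateral line markers 1 was lower, the otolith gene otomp, and the sum over 8 such markers was 543 to 677 in the foggy arrays, against 859 in the wild-type array. Much of that sum was otomp itself, at 225, 171 and 189 in the foggy arrays, against 397 in the wild-type array. The part of the ear in the gata3 reading was not tested. The related factor gata2a read 129, 117 and 126 in the foggy arrays, against 131 in the wild-type array, a difference of -0.06 (adjusted p = 0.816).

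The arnt2 gene encodes the bHLH-PAS partner of Sim1 in neuroendocrine and dopamine neurons of the hypothalamus. It had 2 probe sets, and both were faint. The first read 38.2, 34.1 and 37.6 in the foggy arrays, against 43.5 in the wild-type array, and the second 35.7, 31.5 and 37.3 in the foggy arrays, against 38.7 in the wild-type array. Foggy array 2 was the lowest of the 4 on both and lay under the highest tag control, while the other arrays stood above it. The differences of -0.18 (95% interval -0.54 to 0.18) and -0.11 (95% interval -0.48 to 0.27) pointed the same way and did not pass (adjusted p = 0.591 and 0.787). The partner gene sim1a was dim, at 12.5, 8.40 and 8.81 in the foggy arrays, against 10.4 in the wild-type array.

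The ret gene encodes the receptor tyrosine kinase for ligands of the GDNF family, known from enteric, sensory and dopamine neurons. Its 2 probe sets disagreed. The first read 25.9, 28.5 and 34.5 in the foggy arrays, against 46.3 in the wild-type array, and the second read 30.3, 32.3 and 35.3 in the foggy arrays, against 29.3 in the wild-type array. The foggy arrays lay below the wild type on the first and above it on the second. The differences were -0.45 (SE 0.179, 95% interval -0.85 to -0.05, adjusted p = 0.186) and +0.10 (SE 0.170, 95% interval -0.28 to 0.48, adjusted p = 0.804), and neither passed. The name of the second probe set marks it as one whose probes also occur in other transcripts. Foggy array 3 was the only foggy array above the highest tag control on either probe set, while all values exceeded the other 16 tags. With the probe sets in opposite directions, no direction can be given for ret. The ligand gene gdnfa was dim, at 2.28 to 3.38 in the foggy arrays, against 3.64 in the wild-type array, and the co-receptor gene gfra1a read 43.6 to 49.1 in the foggy arrays, against 46.1 in the wild-type array (adjusted p = 0.948).

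**Figure D2:**
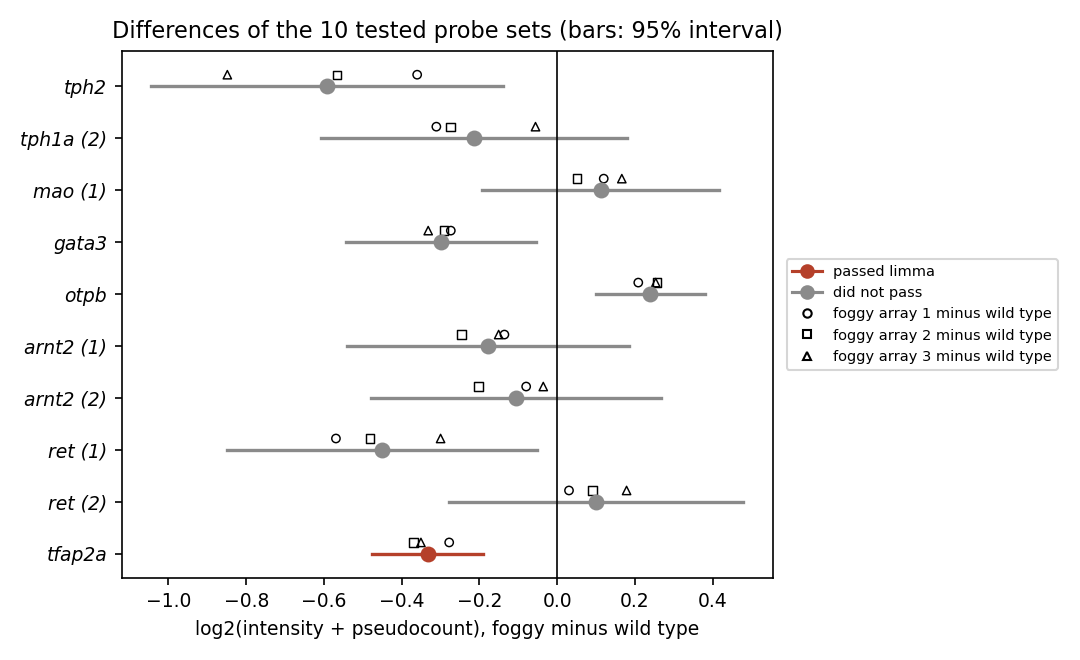
Difference of the 10 tested probe sets, foggy minus wild type, on the log2(intensity + pseudocount) scale. Filled points are fitted differences, bars are 95% intervals, and open symbols are the single foggy arrays minus the wild-type array. The tfap2a bar, in red, is the only one that passed limma's test, and the widest bar is that of tph2, from -1.04 to -0.14.

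In all 10 tested probe sets the 3 foggy arrays lay on 1 side of the wild-type array, where 64.6% of all tested probe sets did so. They lay below it in 7 of the 10 and above it in 3, against 28.4% and 36.2% of all tested probe sets. Every such count rests on the same wild-type array. The median difference was -0.20 over these 10 probe sets and +0.02 over all tested probe sets. At an unadjusted p under 0.05 stood 5 of the 10, tph2, gata3, otpb, tfap2a and the first ret probe set, against 20.6% of all tested probe sets. In 0 of the 10 were all 3 foggy arrays at least 1 log2 unit away from the wild type, a size that 0.59% of all tested probe sets reached (0.571% lower and 0.0184% higher). A permutation of 1 array against 3 cannot give a p below 0.25, so the calls rest on limma's pooled spread.

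The other genes of amine neurons were read from 5 lists with 142 further genes, of which 59 were on the array under these symbols and 39 were tested. Of the 39, 1 was higher, 5 were lower and 33 did not pass, with a median difference of -0.04. That is 15.4% called, against 5.5% of all tested probe sets. Many of these genes also act in other cells, and the lists are described only by their counts. The counts of the single lists below include the members that belong to them, whereas the 39 leave the members out.

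In the list of amine and cofactor synthesis, which includes tph2, tph1a and th, 7 of 13 genes on the array were tested. Of the 7, 1 was lower, 0 higher and 6 did not pass, a share of 14.3% beside 5.5% of all tested probe sets. At an unadjusted p under 0.05 stood 3 of the 7, gch2, tph2 and qdpra, against 20.6% of all tested probe sets. The lower gene was gch2, which encodes a GTP cyclohydrolase that starts pterin synthesis in pigment cells. It read 484, 470 and 478 in the foggy arrays, against 1143 in the wild-type array, a difference of -1.23 (SE 0.067, adjusted p = 5.21e-06). The pigment cell markers, which include gch2, were lower as given above. The pterin recycling gene pcbd1 read 273, 230 and 206 in the foggy arrays, against 251 in the wild-type array (adjusted p = 0.753). The melatonin enzyme gene aanat2, a pineal marker, read 53.8, 41.9 and 58.0 in the foggy arrays, against 54.0 in the wild-type array, with the wild type inside the foggy range (adjusted p = 0.879). The cyclohydrolase regulator gene gchfr differed by +0.21 (adjusted p = 0.603). The decarboxylase gene ddc and the noradrenaline enzyme gene dbh were dim, ddc at 7.21 to 9.36 in the foggy arrays and 4.12 in the wild-type array, and dbh at 3.68 to 5.99 in the foggy arrays and 4.31 in the wild-type array.

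The pineal organ also makes serotonin, and its markers are given for tph2. The pineal opsin gene exorh read 35.6, 33.9 and 33.7 in the foggy arrays, against 46.8 in the wild-type array (adjusted p = 0.302), and otx5 read 70.7 to 92.7 in the foggy arrays, against 60.4 in the wild-type array (adjusted p = 0.282). The whole list of 12 pineal and photoreceptor markers summed to 1002 to 1112 in the foggy arrays, against 1668 in the wild-type array. Of its 9 tested genes 4 were lower, where 3.14% of all tested probe sets were called lower. All 4 were opsins or transducins of photoreceptors. At an unadjusted p under 0.05 stood 6 of the 9, against 20.6% of all tested probe sets. The gene with the highest mean level in the list, crx, read higher in every foggy array. It read 380, 427 and 430 there, against 325 in the wild-type array (+0.33, adjusted p = 0.062 by limma). The sum is therefore not read as a level of the pineal organ. The part of the pineal organ in the tph2 difference was not tested.

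Amine transport, breakdown and receptor genes were few and mostly faint. In the list of transport and breakdown, which includes mao and slc6a3, 3 of 4 genes were tested and 0 passed limma's test. At an unadjusted p under 0.05 stood 0 of the 3, against 20.6% of all tested probe sets. The aldehyde dehydrogenase genes aldh2.2 and aldh7a1 differed by -0.18 (adjusted p = 0.283) and -0.03 (adjusted p = 0.856). Of 9 amine receptor genes on the array 3 were tested, the alpha-2 adrenergic receptors adra2a (-0.31), adra2b (-0.21) and adra2da (-0.04), and 0 passed limma's test, with 0 at an unadjusted p under 0.05 (adjusted p from 0.346 to 0.934). The dopamine receptor genes drd2a, drd2b, drd2l and drd3 were dim, and so were the alpha-2 adrenergic receptor genes adra2c and adra2db.

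The transcription factor list was the best read, with 25 of 29 genes tested. They include gata3, otpb, arnt2 and tfap2a, given above. Of the 25, 1 was higher, 4 were lower, tfap2a among them, and 20 did not pass. That is 20% called, against 5.5% of all tested probe sets. At an unadjusted p under 0.05 stood 10 of the 25, against 20.6% of all tested probe sets. The median difference was -0.03. The homeobox gene dlx2a, of GABA and some dopamine neurons of the forebrain, rose: it read 392, 384 and 399 in the foggy arrays, against 272 in the wild-type array (+0.50, SE 0.0761, adjusted p = 0.00451). The LIM homeobox gene isl1a was lower, at 909, 899 and 868 in the foggy arrays, against 1286 in the wild-type array (-0.52, adjusted p = 0.00107). Its probe set is of the kind whose probes also occur in other transcripts. The gene pax6b read 128, 145 and 128 in the foggy arrays, against 217 in the wild-type array (-0.64, adjusted p = 0.0105), and it is also expressed in retina and pancreas. The gene meis1b read 841, 826 and 864 in the foggy arrays, against 1070 in the wild-type array (-0.34, adjusted p = 0.0148). Besides tfap2a, the paralog tfap2b read 590, 610 and 582 in the foggy arrays, against 713 in the wild-type array, a difference of -0.26 that did not pass (adjusted p = 0.0585). The proneural gene ascl1a (+0.06, adjusted p = 0.715) and the noradrenergic and heart factor gene hand2 (-0.04, adjusted p = 0.864) did not pass either. In the fit with no trend in the variance dlx2a, isl1a, pax6b and meis1b missed the threshold (adjusted p = 0.0774, 0.0740, 0.0663 and 0.167). They also missed it with the larger wild-type SD (adjusted p = 0.315, 0.115, 0.517 and 0.612).

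Among trophic signals, a list that includes ret, 9 of 14 genes were tested. Of the 9, 1 was lower, 0 higher and 8 did not pass, a share of 11.1% beside 5.5% of all tested probe sets. At an unadjusted p under 0.05 stood 3 of the 9, against 20.6% of all tested probe sets. The lower gene was manf, which encodes a neurotrophic factor of the endoplasmic reticulum that dopamine neurons respond to. It read 205, 209 and 197 in the foggy arrays, against 279 in the wild-type array (-0.42, SE 0.0900, adjusted p = 0.0243). It too missed the threshold with no trend (adjusted p = 0.118) and with the larger wild-type SD (adjusted p = 0.739), while gch2 passed in both. The neurotrophin gene bdnf (-0.08, adjusted p = 0.803) and the Hedgehog ligand genes shha (+0.13, adjusted p = 0.518) and shhb (-0.17, adjusted p = 0.569) did not pass. The gene fgf8a differed more, at 40.1, 48.9 and 50.7 in the foggy arrays, against 25.3 in the wild-type array. Its difference of +0.59 did not pass limma's test either (adjusted p = 0.0814), and its wild-type value lay under the highest tag control.

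**Figure D3:**
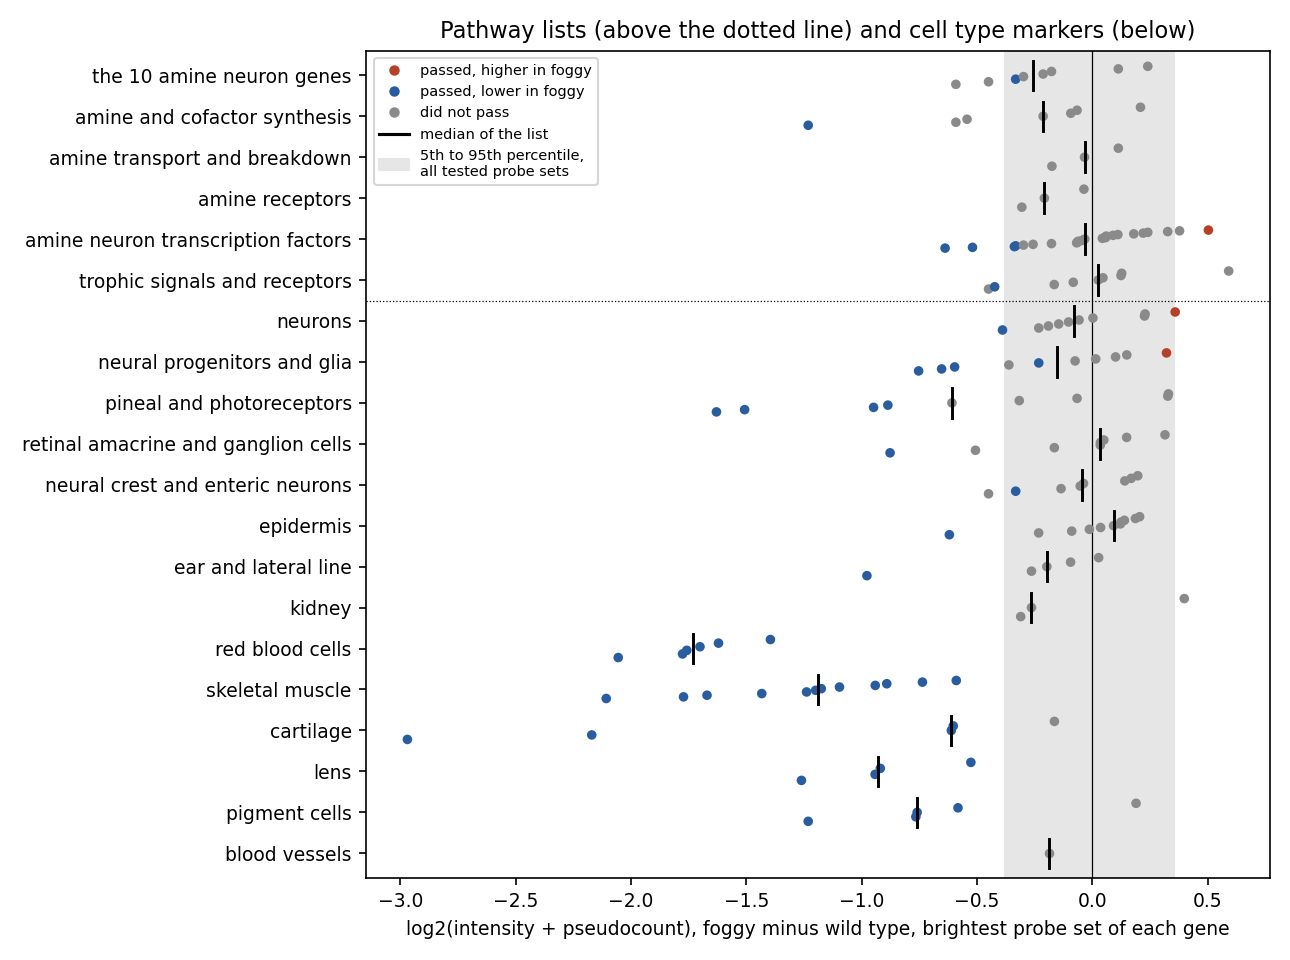
Difference, foggy minus wild type, of each tested gene in the pathway lists (above the dotted line) and cell type marker lists (below), on the log2(intensity + pseudocount) scale, by the brightest probe set of each gene. Each point is a gene, red and blue points passed limma's test, black bars are list medians, and the grey band spans the 5th to 95th percentile of all tested probe sets, -0.38 to 0.35. The medians of the 5 amine neuron lists lie inside the band, while those of pineal and photoreceptors, red blood cells, skeletal muscle, cartilage, lens and pigment cells lie below it.

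The genes whose pattern over the 3 foggy arrays was nearest to that of tph2 were found among 8172 tested probe sets with 1 gene symbol, by Euclidean distance over the 3 differences from the wild-type array. They were rcn1 (a calcium-binding protein of the secretory pathway, distance 0.0848), cldnj (a claudin, 0.106), prelid3b (0.169), col6a3 (a collagen VI chain, 0.170) and pgm3 (an enzyme of hexosamine synthesis, 0.199). Because they were picked by those same 3 differences, sharing the array order of tph2 follows largely from the rule. As for tph2, foggy array 1 was the closest of the foggy arrays to the wild type in rcn1, cldnj, prelid3b and pgm3. In col6a3 foggy array 2 was slightly closer, at 75.7 against 73.7 for foggy array 1 and 54.7 for foggy array 3, with 110 in the wild-type array. Only prelid3b of the 5 passed limma's test (adjusted p = 0.0357). The foggy values of cldnj, 31.5, 26.8 and 20.8, lay under the highest tag control. With 4 arrays this likeness is a description.

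**Figure D4:**
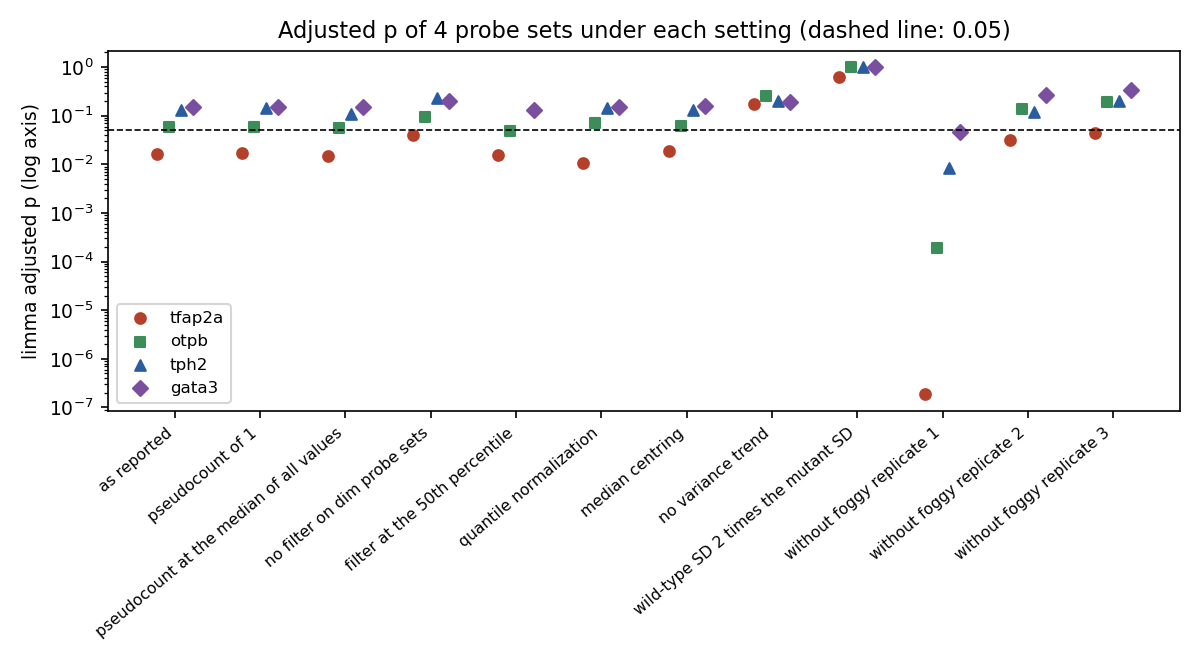
Adjusted p of limma (log axis) for the probe sets of tfap2a, otpb, tph2 and gata3 as reported and under each of 11 alternative settings, with 0.05 as a dashed line. The tfap2a points lie under the line in 9 of 11 alternatives, those of otpb in 2 of 11, and those of tph2 and gata3 only without foggy array 1. The tph2 probe set was not tested when probe sets under the 50th percentile were left out.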

How the data were processed

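RNA of zebrafish embryonic brain, 3 foggy samples and 1 wild-type sample, was measured with 1 array each. The authors deposited 1 table of intensity values on a linear scale. The sources used here do not name the software that summarised the probes. The mean after trimming 2% of values at each end was 150 in each array, so the values were already scaled and were used as deposited. Scaling removes any change shared by most transcripts.

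Of 15617 probe sets, 115 controls and 4651 dim ones were left out. Symbols came from the platform's annotation, and gene numbers were looked up in RefSeq's table of assembly GRCz12tu for current names. A single symbol was found for 10802 probe sets, several for 135 and none for 4680. No genome positions are given because the table names no build. The pseudocount is the 20th percentile of all values. limma 3.58.1 in R 4.3.3 (lmFit, eBayes with a variance trend) compared foggy with wild type over 10851 probe sets. P-values are two-sided, Benjamini-Hochberg adjusted over all of them, with 0.05 as the threshold. The spread came from the foggy arrays alone (residual degrees of freedom 2, prior 7.89), on the assumption that wild-type brain varies equally. P-values thus reflect the spread of these samples alone, possibly technical. Precision is limited by the number of arrays. The fit was also run on simulated arrays, in which the wild-type array was given the same spread as the foggy arrays. That run therefore cannot check the assumption of equal spread.

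The members and gene lists were chosen with earlier results of these data known. Named were all members, other listed genes that passed, the 3 brightest per list that did not, and the 5 probe sets nearest to tph2. Further genes (tph1b, qdpra, ddc, dbh, gata2a, sim1a, gdnfa, gfra1a, fgf8a, the drd genes, adra2c, adra2db, exorh, otx5 and other markers) were named after their values were seen. In a list each gene stands by its brightest probe set.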

Additional observations from a re-analysis of the deposited data

How the results depend on the processing

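In 11 alternatives every tested probe set of the 10 genes kept the sign of its difference wherever it was tested. Without the variance trend, 164 probe sets passed (27 higher and 137 lower), and 47 passed when the wild-type array was given 2 times the SD of the foggy arrays (3 higher and 44 lower), against 597 as reported (256 higher and 341 lower). In both settings 0 probe sets of the 10 genes passed limma's test, with 5 and 1 of 10 at an unadjusted p under 0.05, and 1 of the other pathway genes passed. Without a filter on dim probe sets 380 passed, of which 129 were higher, and 2 probe sets of the 10 genes, tfap2a and otpb, passed with the filter at the 50th percentile. Leaving out 1 foggy array at a time gave 557 to 2045 probe sets (213 to 1179 higher, 344 to 866 lower), 1 to 4 of the 10 genes' probe sets and 6 to 10 other pathway genes. The upper end of each range came without foggy array 1. Pseudocounts, quantile normalization and median centring changed no call among the 10 genes. The single wild-type array could not be left out. No paired analysis was possible because the genotypes share only the number 1. Signal limits th, slc6a3, the fainter tph1a and 3 of 4 mao probe sets, which stayed under the highest tag control, and tph2, the brighter tph1a, arnt2 and ret, which lay near it in the foggy arrays.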
